A study of Mus musculus with 27 samples.

Results

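The 8 genes Lpcat1, Lpcat2, Lpcat3, Lpcat4, Mboat1, Mboat2, Mboat7 and Lpgat1 encode acyltransferases that remodel the fatty acid chains of phospholipids. They were chosen by gene symbol, and each was found under 1 of the 55487 gene identifiers of the deposited tables. Lpcat3 is known as a target gene of the liver X receptors (LXR), nuclear receptors that sense oxidised sterols, and the other members carry out related reactions.

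Messenger RNA was measured by sequencing in 27 libraries from primary mouse cells of 3 kinds, with 3 libraries in each of 9 groups. The cells were microglia shaken off mixed glial cultures, macrophages grown from bone marrow for 6 days with the growth factor M-CSF (BMDM), and hepatocytes plated on collagen. Each kind was kept for 24 h in serum-free medium with an ethanol vehicle, with 10 µM of the algal sterol 24(S)-saringosterol, or with a synthetic compound at 1 µM. That compound appears in the labels as GW3596, GW3964 or GW3965, of which GW3965 is a known LXR agonist, and is called GW here. The labels used here give no genotype, strain or age. The treatment medium of microglia and BMDM was based on DMEM/F12 and held fatty-acid-free albumin, M-CSF and a supplement of insulin, transferrin and selenite, whereas that of hepatocytes was Williams' E. Medium and cell type therefore cannot be told apart wherever hepatocytes are set against the other cells. Because the doses differ, values for saringosterol and GW stand side by side and not at a matched dose. Separate animals or cultures are not named for the replicates, so p-values measure only the spread between these libraries, which may be technical.

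Phospholipids are built with one set of fatty acid chains and then edited. In this editing route, the Lands cycle, a phospholipase removes a chain to leave a lysophospholipid, and a lysophospholipid acyltransferase attaches another from acyl-CoA. Which chain is attached sets how fluid a membrane is and which precursors of lipid mediators it stores. The 8 enzymes belong to 2 families with unlike sequences, membrane-bound O-acyltransferases (Lpcat3, Mboat1, Mboat2, Mboat7) and relatives of the acylglycerolphosphate acyltransferases (Lpcat1, Lpcat2, Lpcat4, Lpgat1).

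Total counts per library lay between 30295862 and 41040268, so a count of 0 allows up to 3 counts, or 0.073 to 0.099 CPM (counts scaled to a fixed library total); this limit covers counting error only. Macrophage markers (Csf1r, Cd68, Adgre1, Itgam, Fcgr1, Lyz2) summed to 33600 to 38400 CPM in microglia, 20000 to 27800 CPM in BMDM and 331 to 378 CPM in hepatocytes. Hepatocyte markers (Alb, Apoa1, Ttr, Serpina1a, Cps1, Cyp3a11) summed to 8830 to 9690 CPM in hepatocytes and to at most 0.0843 CPM elsewhere. Of 6 microglia markers, Siglech was at 0 in every microglia library, and the sum was 820 to 1020 CPM in microglia against 222 to 273 CPM in BMDM. Replicate 3 of the saringosterol-treated BMDM stood apart: 8 interferon-stimulated genes summed to 751 CPM there and to 108 and 114 CPM in the other libraries of its group, against 269 to 429 CPM in the BMDM vehicle group. GW-treated BMDM held 124 to 168 CPM. In microglia the same sum was 1610 to 1820 CPM with vehicle, 926 to 953 CPM with saringosterol and 464 to 631 CPM with GW. The part of interferon signalling in the members' values was not tested. Values without BMDM saringosterol replicate 3 are given beside the BMDM results of Lpcat1, Lpcat2, Lpcat3, Lpcat4, Mboat2 and Mboat7.

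The promoters of 3 members called against vehicle in microglia, Lpcat3, Lpcat2 and Mboat1, are shown first, because LXR are receptors that bind DNA. With GW in microglia Lpcat3 rose, and Lpcat2 and Mboat1 fell. The window of Lpcat1, which was also called there and rose, is not printed. RefSeq transcription start sites on GRCm38.p6 gave 9 windows for the 8 members, Lpgat1 having 2. Each window below is the 250 bases before the start, 5′ to 3′ on the gene's strand, and capitals mark the CCAAT box in either orientation (CCAAT or ATTGG). All 3 genes lie on the plus strand, at chr6:124662854-124663103 for Lpcat3, chr8:92855083-92855332 for Lpcat2 and chr13:30136240-30136489 for Mboat1.
Lpcat3: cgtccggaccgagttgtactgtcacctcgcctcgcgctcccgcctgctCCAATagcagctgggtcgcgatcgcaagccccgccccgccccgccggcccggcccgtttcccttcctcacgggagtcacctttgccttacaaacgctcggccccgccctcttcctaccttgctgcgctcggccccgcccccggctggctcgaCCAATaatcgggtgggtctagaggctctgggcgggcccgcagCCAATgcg
Lpcat2: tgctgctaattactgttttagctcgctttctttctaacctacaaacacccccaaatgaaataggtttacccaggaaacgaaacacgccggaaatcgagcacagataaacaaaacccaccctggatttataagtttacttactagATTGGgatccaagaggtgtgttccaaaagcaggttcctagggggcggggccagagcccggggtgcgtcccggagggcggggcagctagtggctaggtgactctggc
Mboat1: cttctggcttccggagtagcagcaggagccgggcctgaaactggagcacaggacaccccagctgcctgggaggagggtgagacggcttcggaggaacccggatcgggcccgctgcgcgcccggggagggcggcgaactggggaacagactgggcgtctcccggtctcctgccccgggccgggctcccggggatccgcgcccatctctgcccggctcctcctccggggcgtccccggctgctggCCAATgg
The Lpcat3 window held 3 CCAAT boxes, which begin 202, 50 and 8 bases before the start, and Lpcat2 and Mboat1 held 1 each. Of 32851 such mouse windows 33.8% held at least 1 CCAAT box and 2.79% held at least 3. Mboat2, which is not printed, held 2, and the other members' windows held none. The letters of the GC box (GGGCGG) occurred 1 to 6 times in each of the 9 windows, against 32.7% of all windows with at least 1 match. Neither the 16-letter repeat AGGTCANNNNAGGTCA, a textbook form of the LXR element (0.0152% of all windows), nor its single repeat unit AGGTCA (14%) was found in any of the 9 windows on either strand. The same holds for the sterol regulatory element TCACNCCAC (1.05%) and the E-box CACGTG (6.02%). These matches are exact letters in a short window. They cannot show that a variant form of an element is absent there, and they say nothing of binding elsewhere. The windows differed in base composition, with 70.0% G and C for Lpcat3, 51.2% for Lpcat2 and 73.2% for Mboat1 against a median of 52.4% over all windows.

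The genes themselves lie on 7 chromosomes. On GRCm38, Lpcat3 (ENSMUSG00000004270) spans chromosome 6, 124663027 to 124704418, so that the span in the files begins inside the window printed above. Lpcat1 (ENSMUSG00000021608) spans chromosome 13, 73467197 to 73516422, and Mboat1 (ENSMUSG00000038732) lies on the same chromosome at 30136489 to 30246717. Lpcat2 (ENSMUSG00000033192) spans chromosome 8, 92855339 to 92919279, Lpcat4 (ENSMUSG00000027134) chromosome 2, 112239468 to 112247111, and Mboat2 (ENSMUSG00000020646) chromosome 12, 24830879 to 24964397. Mboat7 (ENSMUSG00000035596) spans chromosome 7, 3677789 to 3693523, on the minus strand, and Lpgat1 (ENSMUSG00000026623) chromosome 1, 191717834 to 191784255. Because the strand setting of the counting is not given in the sources used here, reads from overlapping genes on opposite strands cannot be told apart. Exons of Emg1 cover 334 of the 3268 exonic bases of Lpcat3, those of the antisense gene Gm45472 cover 287 of 3388 bases of Lpcat2, and those of Tsen34 cover 277 of 8339 bases of Mboat7. Emg1 stood between 29.4 and 36.7 CPM in all microglia libraries and between 30.0 and 33.5 CPM in all BMDM libraries, at 62.8 to 75.1 CPM in hepatocytes, and no compound changed it past the test. It was higher in vehicle hepatocytes than in vehicle microglia (0.81) and vehicle BMDM (0.74), and its part in the Lpcat3 values was not tested. Gm45472 had at most 9 counts in any library. Tsen34 was not called against vehicle in any of the 6 comparisons (-0.16 to 0.02), but it was lower in vehicle microglia (-0.58) and vehicle hepatocytes (-1.12) than in vehicle BMDM, as Mboat7 was, and its part in the Mboat7 values was not tested.

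Lpcat3 was first or shared the first place in every vehicle group, and the genes behind it differed. Levels between genes are compared on the deposited TPM scale, which is per transcript length. In vehicle-treated microglia, Lpcat3, which attaches polyunsaturated chains to lysophosphatidylcholine and related lysolipids, stood at 83.7, 81.8 and 78.0 TPM. Lpcat2, which makes both phosphatidylcholine and the mediator platelet-activating factor, stood at 57.0, 58.2 and 57.3 TPM there. Lpgat1, named for lysophosphatidylglycerol, followed at 36.6 ± 1.44 TPM (SD, n = 3). Next came Lpcat1, which favours saturated chains and is known for lung surfactant, at 22 ± 1.66 TPM, and Mboat7, which attaches arachidonate to lysophosphatidylinositol, at 15.5 ± 0.172 TPM. Lpcat4 was at 6.66 ± 0.757 TPM and Mboat1, which acts on lysophosphatidylethanolamine and lysophosphatidylserine, at 1.42 ± 0.375 TPM. Mboat2, an enzyme of similar reach, was lowest at 0.346 ± 0.189 TPM. No neighbours in this order overlapped between libraries.

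In vehicle-treated BMDM, Lpcat3 stood at 77.7, 73.6 and 90.1 TPM and Lpcat1 at 69.7, 70.0 and 75.6 TPM. Their ranges overlapped, so the first place was shared. Lpcat2 at 31.5 ± 3.77 TPM and Lpgat1 at 30.9 ± 0.961 TPM (SD, n = 3) overlapped as well. Mboat7 stood at 22.2 ± 2.05 TPM. Lpcat4 at 3.47 ± 0.438 TPM and Mboat1 at 3.21 ± 0.294 TPM could not be ordered, and Mboat2 was at 0.77 ± 0.402 TPM. In vehicle-treated hepatocytes, Lpcat3 stood at 103, 96.1 and 101 TPM and Lpgat1 at 94.7, 98.3 and 97.2 TPM, again with overlap. Mboat7 at 16.2 ± 1.05 TPM and Lpcat4 at 6.57 ± 1.4 TPM came next. Mboat1 at 2.26 ± 0.613 TPM and Lpcat1 at 1.49 ± 0.246 TPM overlapped. Lpcat2 stood at 0.688, 0.444 and 0.919 TPM, and Mboat2 had 0, 2 and 1 counts. In saringosterol-treated hepatocytes Lpgat1 (99.7 ± 2.57 TPM) stood above Lpcat3 (94.3 ± 2.53 TPM) without overlap.

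**Figure D1:**
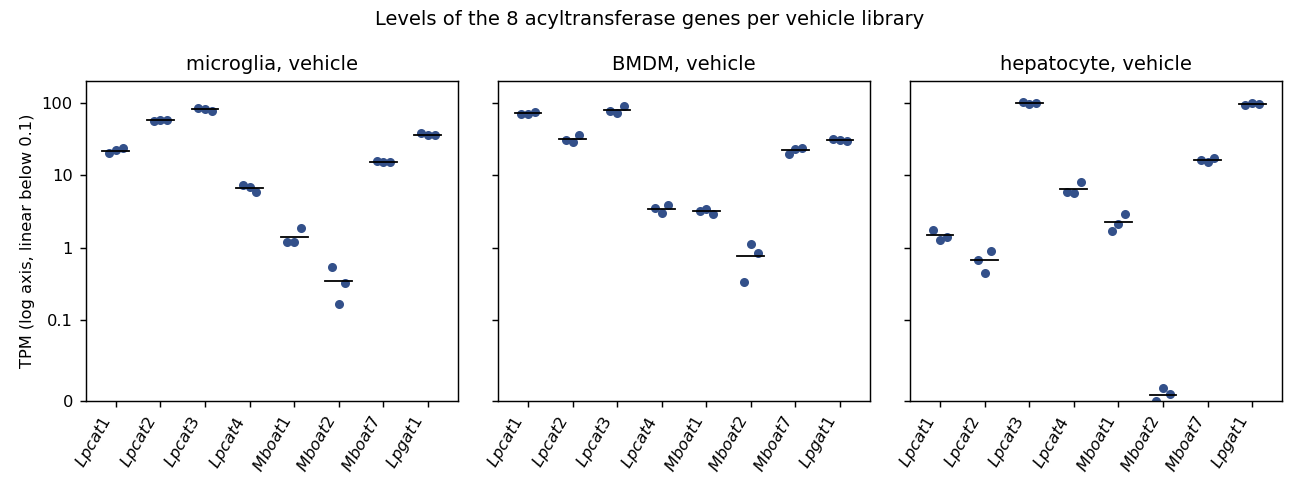
Deposited TPM of the 8 genes in the vehicle libraries of microglia, BMDM and hepatocytes (points are libraries, lines are means, the vertical axis is logarithmic and linear below 0.1). Lpcat3 is at 73.6 to 103 TPM in all 9 libraries, while Lpcat1 and Lpcat2 are at 20.3 to 75.6 TPM in microglia and BMDM and at 0.444 to 1.76 TPM in hepatocytes.

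On counts scaled jointly over all 27 libraries, no difference in Lpcat3 between the 3 vehicle groups passed the test, while most other members differed. Here and below, calls come from edgeR's quasi-likelihood test at an adjusted p under 0.05 over all genes, CPM values of single genes are on TMM-scaled totals, and fold changes are log2 with their standard error (SE). Lpcat3 differed by -0.09 ± 0.06 between vehicle microglia and BMDM (edgeR adjusted p = 0.22) and by -0.01 ± 0.06 between hepatocytes and microglia (adjusted p = 0.89; 95% interval -0.13 to 0.11). Hepatocytes against BMDM gave -0.1 ± 0.06 (adjusted p = 0.12). These estimates depend on the scaling between cell types. On the deposited TPM scale, vehicle hepatocytes stood at 96.1 to 103 TPM, above microglia at 78.0 to 83.7 TPM and BMDM at 73.6 to 90.1 TPM. Without BMDM vehicle replicate 2, the comparisons with BMDM passed the test, at -0.16 for microglia (adjusted p = 0.046) and -0.16 for hepatocytes (adjusted p = 0.021). In bulk RNA, fewer cells of a type and less RNA per cell cannot be told apart, and this holds for every level given here.

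Of the 8 members 7 differed between vehicle microglia and BMDM, where 46.5% of all 18979 genes were called. Lpcat1 was lower in microglia (-1.81 ± 0.075, edgeR adjusted p = 5.3e-20), and Mboat1 (-1.28 ± 0.21) and Mboat7 (-0.62 ± 0.069) were lower too. Mboat2 was lower at -1.25 ± 0.5 with adjusted p = 0.04, a call that ended without any 1 of microglia vehicle replicates 2 or 3 or BMDM vehicle replicates 2 or 3 (-1.22 to -0.87, adjusted p = 0.095 to 0.21). Microglia had more Lpcat2 (0.77 ± 0.095), Lpcat4 (0.83 ± 0.18) and, by a small margin, Lpgat1 (0.14 ± 0.044, adjusted p = 0.0086). That last call was lost with no filter (0.12, adjusted p = 0.2) and without microglia vehicle replicate 1 (adjusted p = 0.056).

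Hepatocytes were set apart by Lpcat1 and Lpcat2 at one end and Lpgat1 at the other. Against vehicle microglia 5 of 8 members were called (73.5% of all genes), and against vehicle BMDM 7 of 8 (75.2%). Lpcat2 was lower in hepatocytes than in microglia by -6.7 ± 0.15 and lower than in BMDM by -5.94 ± 0.15 on the log2 scale. For Lpcat1 the differences were -4.19 ± 0.1 and -6 ± 0.1. Lpgat1 was higher in hepatocytes, at 1.09 ± 0.044 over microglia (edgeR adjusted p = 9.5e-22) and 1.23 ± 0.044 over BMDM. Mboat7 was lower at -0.25 ± 0.07 and -0.87 ± 0.07 on jointly scaled counts. The difference from microglia was not seen on the deposited TPM scale. There Mboat7 stood at 16.2 ± 1.05 TPM in vehicle hepatocytes and 15.5 ± 0.172 TPM in vehicle microglia (SD, n = 3), so that call depends on the scaling between cell types. Lpcat4 and Mboat1 were called against BMDM, at 0.5 ± 0.18 and -0.93 ± 0.21, and the Lpcat4 call ended without BMDM vehicle replicate 2 (adjusted p = 0.074) or hepatocyte vehicle replicate 3 (adjusted p = 0.14). Against microglia they were not called (-0.34, adjusted p = 0.08, and 0.35, adjusted p = 0.15). There Lpcat4 passed without hepatocyte vehicle replicate 3 (-0.51, adjusted p = 0.016) and Mboat1 without microglia vehicle replicate 3 (0.59, adjusted p = 0.028). Mboat2 was also called in both comparisons, but with 0 to 2 counts in a hepatocyte library no fold is given. Macrophage markers summed to 331 to 378 CPM in the hepatocyte libraries, and their part in the low Lpcat1 and Lpcat2 values was not tested.

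Summed over the 8 genes, the mRNA was higher in every GW library than in the other libraries of its cell type. The sum stood at 221 ± 2.77 TPM in microglia, 244 ± 15.8 TPM in BMDM and 224 ± 5.11 TPM in hepatocytes with vehicle (SD, n = 3). With saringosterol it was 241 ± 7.56, 293 ± 6.93 and 220 ± 5.65 TPM, and with GW 404 ± 2.71, 433 ± 13 and 289 ± 6.54 TPM. In the same order of cell types, Lpcat3 alone stood at 81.1 ± 2.91, 80.5 ± 8.6 and 100 ± 3.58 TPM with vehicle. With GW it stood at 287 ± 5.04, 244 ± 4.6 and 166 ± 6.95 TPM. Lpcat3 made up 36.7 ± 0.869% of the sum in vehicle microglia, 43.0 ± 0.918% with saringosterol and 71.0 ± 0.797% with GW. In BMDM its share was 32.9 ± 1.44%, 41.8 ± 0.898% and 56.4 ± 1.27% in the same order, and in hepatocytes 44.7 ± 1.06%, 42.9 ± 0.568% and 57.3 ± 1.3%. The Lpcat3 share, too, was higher in every GW library than in the other libraries of its cell type. No test was made of these sums and shares.

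Lpcat3 rose with GW in all 3 cell types and with saringosterol in microglia and BMDM. In microglia it stood at 90.9, 89.7 and 86.1 CPM with vehicle, 116, 114 and 108 CPM with saringosterol and 339, 325 and 323 CPM with GW. The 3 groups did not overlap. In BMDM the libraries held 90.2, 85.1 and 105 CPM with vehicle, 131, 135 and 139 CPM with saringosterol and 284, 269 and 283 CPM with GW, again without overlap. In hepatocytes it stood at 122, 110 and 118 CPM with vehicle, 109, 110 and 111 CPM with saringosterol and 195, 185 and 202 CPM with GW. There the saringosterol libraries overlapped the vehicle libraries and the GW libraries lay above both.

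**Figure D2:**
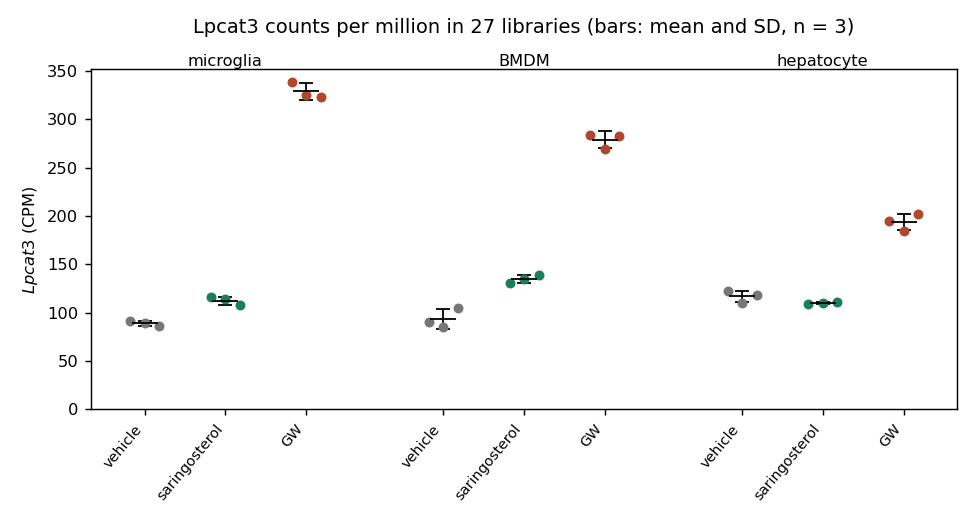
Lpcat3 in CPM on a linear axis from 0, by cell type and treatment (points are libraries, bars are mean and SD, n = 3). GW libraries sit at 323 to 339 CPM in microglia, 269 to 284 in BMDM and 185 to 202 in hepatocytes, and saringosterol libraries are above vehicle in microglia and BMDM only.

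Saringosterol raised Lpcat3 by 0.34 ± 0.042 in microglia (1.26-fold, edgeR adjusted p = 7.1e-07) and by 0.53 ± 0.067 in BMDM (1.44-fold, adjusted p = 3.6e-05). Leaving out BMDM saringosterol replicate 3 gave 0.51 (adjusted p = 7.1e-06). In hepatocytes the estimate was -0.09 ± 0.05 (adjusted p = 0.39), with a 95% interval of -0.19 to 0.01 that leaves out the sizes seen in the other cells. GW raised Lpcat3 by 1.89 ± 0.042 in microglia (3.7-fold, adjusted p = 8.9e-25), 1.58 ± 0.068 in BMDM (2.98-fold, adjusted p = 6.1e-12) and 0.73 ± 0.049 in hepatocytes (1.66-fold, adjusted p = 2.5e-11). Set against GW, the saringosterol libraries were lower by -1.55 ± 0.042, -1.05 ± 0.067 and -0.82 ± 0.049 in microglia, BMDM and hepatocytes, at doses of 10 and 1 µM. None of the Lpcat3 calls against vehicle was lost when any 1 library was left out. Saringosterol and GW share their vehicle libraries, so the paired values of each cell type are not independent.

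Beside Lpcat3, the members that were called moved in different directions. With saringosterol, 3 of 8 members were called in microglia (10.8% of all 16065 genes), namely Lpcat1, Lpcat2 and Lpcat3, and 2 of 8 in BMDM (10.7% of 15416), namely Lpcat2 and Lpcat3. In hepatocytes 0 of the 7 tested members were called (1.91% of 16098 genes) by edgeR and by DESeq2, and 1 had an unadjusted p under 0.05. With GW, 4 of 8 were called in microglia (28.7% of all genes), the same 3 and Mboat1. In BMDM GW called 3 of 8 (10.4%), Lpcat1, Lpcat3 and Mboat1, and in hepatocytes 1 of 7 (1.11%), Lpcat3. The median log2 change of the members tested ran from -0.15 to 0.06 over these 6 comparisons, against -0.01 to 0 over all genes. Between the compounds, saringosterol against GW, 3 members were called in microglia (25.5% of all genes), 4 in BMDM (9.33%) and 1 in hepatocytes (1.96%).

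**Figure D3:**
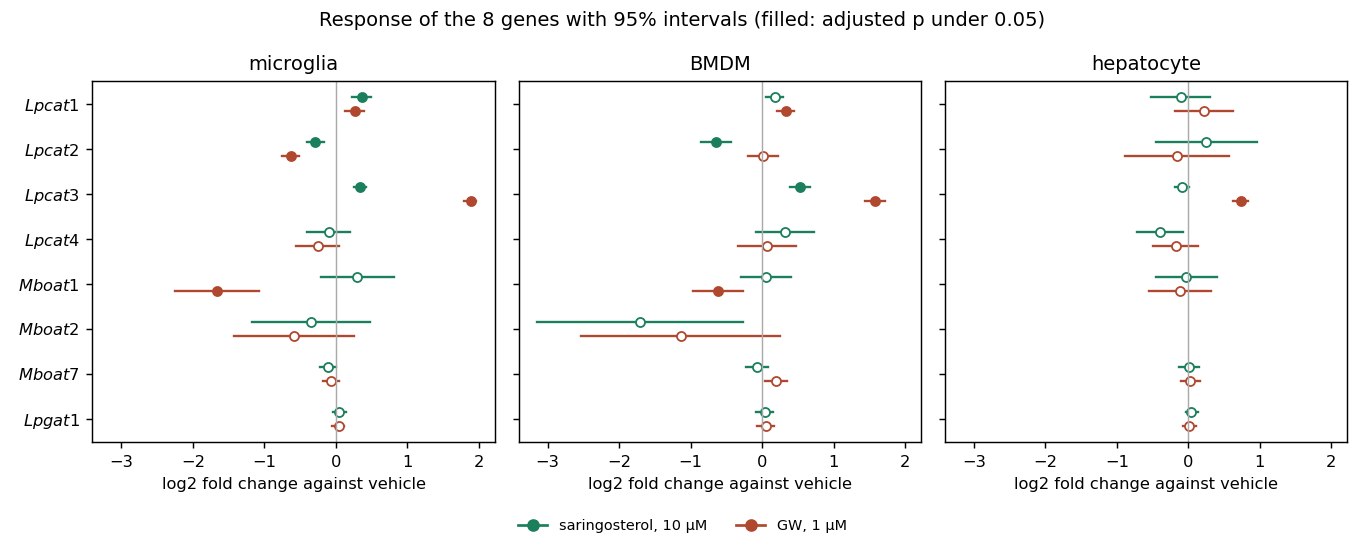
Log2 fold change of each gene against vehicle, for 10 µM saringosterol (green) and 1 µM GW (red), with 95% intervals and filled points for adjusted p under 0.05. Lpcat3 stands out to the right with GW in all 3 panels, Mboat1 lies to the left with GW in microglia and BMDM, and the intervals of Lpgat1 straddle 0 in every panel; Mboat2 was not tested in hepatocytes.

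Lpcat1, the enzyme for saturated chains, rose in microglia and BMDM by less than Lpcat3 did with GW. In microglia its libraries held 31.2, 34.3 and 36.9 CPM with vehicle, 43.5, 47.5 and 41.2 CPM with saringosterol and 41.9, 40.4 and 41.1 CPM with GW. Both treated groups lay above vehicle and overlapped each other. Saringosterol gave 0.37 ± 0.066 (edgeR adjusted p = 0.00018) and GW 0.27 ± 0.066 (adjusted p = 0.0022). In BMDM it stood at 115, 115 and 125 CPM with vehicle, 132, 134 and 134 CPM with saringosterol and 141, 149 and 155 CPM with GW. GW raised it by 0.33 ± 0.056 (adjusted p = 0.00063). The 0.18 ± 0.056 with saringosterol missed the threshold (adjusted p = 0.053) although the groups did not overlap, and it passed under RLE scaling (adjusted p = 0.049) and DESeq2 (0.035). It passed in 3 of 9 runs that left out 1 library (edgeR adjusted p up to 0.2), but not without saringosterol replicate 3 (0.17, edgeR adjusted p = 0.075). Hepatocytes had 1.95 to 3.06 CPM in all groups and no call.

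Lpcat2, which can make platelet-activating factor, fell with both compounds in microglia and with saringosterol in BMDM. Microglia libraries held 64.2, 66.2 and 65.6 CPM with vehicle, 52.3, 56.3 and 52.2 CPM with saringosterol and 38.6, 42.7 and 45.4 CPM with GW, in 3 bands that did not overlap. The changes were -0.29 ± 0.057 with saringosterol (edgeR adjusted p = 0.00063) and -0.63 ± 0.058 with GW (adjusted p = 3.8e-10). The saringosterol call was not kept in one fit of all 27 libraries (-0.28, adjusted p = 0.099). In BMDM, saringosterol libraries stood at 23.1, 21.4 and 27.6 CPM, below the vehicle libraries at 36.4, 34.1 and 43.1 CPM, a change of -0.65 ± 0.1 (adjusted p = 0.00033). Without saringosterol replicate 3 it was -0.77 (adjusted p = 1.9e-06). The GW libraries of BMDM, at 36.2, 38.7 and 39.7 CPM, overlapped vehicle (0.01 ± 0.098, 95% interval -0.19 to 0.22, adjusted p = 0.95). The order of the compounds was thus opposite in the 2 cell types: saringosterol against GW was 0.34 ± 0.058 in microglia and -0.67 ± 0.099 in BMDM. In BMDM the macrophage marker sum also differed, at 26000 to 27700 CPM with vehicle, 20000 to 21500 CPM with saringosterol and 25800 to 27800 CPM with GW; its part in the Lpcat2 value was not tested. Hepatocytes held 20 to 45 counts of Lpcat2 per library.

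Mboat1 was scarce and fell with GW. In microglia it stood at 1.46, 1.49 and 2.3 CPM with vehicle, 2.59, 1.73 and 2.14 CPM with saringosterol and 0.627, 0.493 and 0.532 CPM with GW, the last resting on 22, 17 and 20 counts. The GW libraries lay below all others, with a change of -1.66 ± 0.29 against vehicle (edgeR adjusted p = 3.7e-05). BMDM held 4.24, 4.5 and 3.78 CPM with vehicle, 4.34, 4.18 and 4.47 CPM with saringosterol and 2.79, 2.53 and 2.87 CPM with GW. That fall of -0.61 ± 0.17 was called at adjusted p = 0.024. It was lost without BMDM vehicle replicate 1 (-0.59) or 2 (-0.55) or any 1 of the 3 BMDM GW libraries (-0.64 to -0.56), with adjusted p = 0.055 to 0.1, and in one fit of all 27 libraries (-0.6, adjusted p = 0.053). Saringosterol was not called in microglia (0.3 ± 0.25, adjusted p = 0.54) or BMDM (0.05 ± 0.16). Set against GW it was higher by 1.96 ± 0.29 in microglia and 0.67 ± 0.17 in BMDM, the latter lost without BMDM GW replicate 2 (0.61, adjusted p = 0.066). Hepatocytes held 2.14 to 3.82 CPM in all groups, and the GW estimate there was -0.12 ± 0.21 (adjusted p = 0.94).

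In microglia, small amounts of other cells' markers moved with the compounds in the same libraries. Astrocyte markers (Gfap, Aqp4, Slc1a2, Aldoc, Gja1) summed to 9.32 to 11.2 CPM with vehicle, 4.9 to 7.6 CPM with saringosterol and 20.1 to 21.1 CPM with GW. The same 5 genes summed to 17.6 to 23.2, 4.41 to 8.1 and 27 to 29.3 CPM in BMDM, where Aqp4 was at 0. Endothelial markers (Pecam1, Cdh5, Kdr) summed to 13.1 to 15.7 CPM in vehicle microglia, 11.3 to 11.7 CPM with saringosterol and 4.56 to 5.98 CPM with GW. Their part in the values of the scarce genes Mboat1 and Mboat2 was not tested.

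The remaining members had no call against vehicle or were too scarce to judge. Mboat7, the phosphatidylinositol enzyme, ran from 39.8 to 43.6 CPM over the microglia libraries, from 58.8 to 76.7 CPM over BMDM and from 44.2 to 53.3 CPM over hepatocytes. No change against vehicle was called. The GW estimate in BMDM, 0.2 ± 0.074 (edgeR adjusted p = 0.098), passed in one fit of all 27 libraries (0.21, adjusted p = 0.037) and without BMDM saringosterol replicate 3 (0.2, adjusted p = 0.046). In BMDM saringosterol lay below GW by -0.26 ± 0.074 (edgeR adjusted p = 0.029), at 69.0, 60.4 and 59.3 CPM against 75.1, 74.2 and 76.7 CPM. That call was lost without BMDM saringosterol replicate 2 or 3 or any 1 BMDM GW library (-0.28 to -0.23, adjusted p = 0.065 to 0.11). Lpgat1 ran from 90.6 to 97.2 CPM in microglia, 81.3 to 90.2 CPM in BMDM and 256 to 274 CPM in hepatocytes. Its 6 changes against vehicle lay between 0.01 and 0.05, with 95% intervals that together ran from -0.09 to 0.17. Lpcat4, also known as a lysophosphatidylethanolamine acyltransferase, ran from 4.61 to 6.82 CPM in microglia, 2.98 to 5.49 CPM in BMDM and 4.28 to 8.23 CPM in hepatocytes. None of its changes against vehicle was called; the one with an unadjusted p under 0.05 was saringosterol in hepatocytes (-0.4 ± 0.16, adjusted p = 0.19). Its saringosterol estimate in BMDM was 0.32 with all libraries and 0.11 without replicate 3 of that group. Mboat2 had 16 to 72 counts per microglia library, 15 to 131 per BMDM library and 0 to 2 per hepatocyte library. In BMDM it held 1.15, 3.83 and 2.85 CPM with vehicle against 0.744, 1.17 and 0.462 CPM with saringosterol (-1.71 ± 0.63, adjusted p = 0.13), a difference that passed with no filter on low counts (adjusted p = 9.8e-05) and in one fit of all 27 libraries (0.026). That difference passed in only 1 of 9 runs that left out 1 library (edgeR adjusted p up to 0.3). Without BMDM saringosterol replicate 3 it did not pass (-1.42, edgeR adjusted p = 0.25). The GW estimate for Mboat2 in BMDM was -1.14 ± 0.61 (adjusted p = 0.3), and it passed with no filter (-1.13, adjusted p = 0.016) but in 0 of 9 runs that left out 1 library. Fibroblast and stellate cell markers (Col1a1, Col1a2, Dcn, Lrat, Des) summed to 1.07 to 2.09 CPM in vehicle BMDM, 0.0985 to 0.196 CPM with saringosterol and 0.0257 to 0.405 CPM with GW, with Lrat at 0. Their part in the Mboat2 values was not tested.

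**Figure D4:**
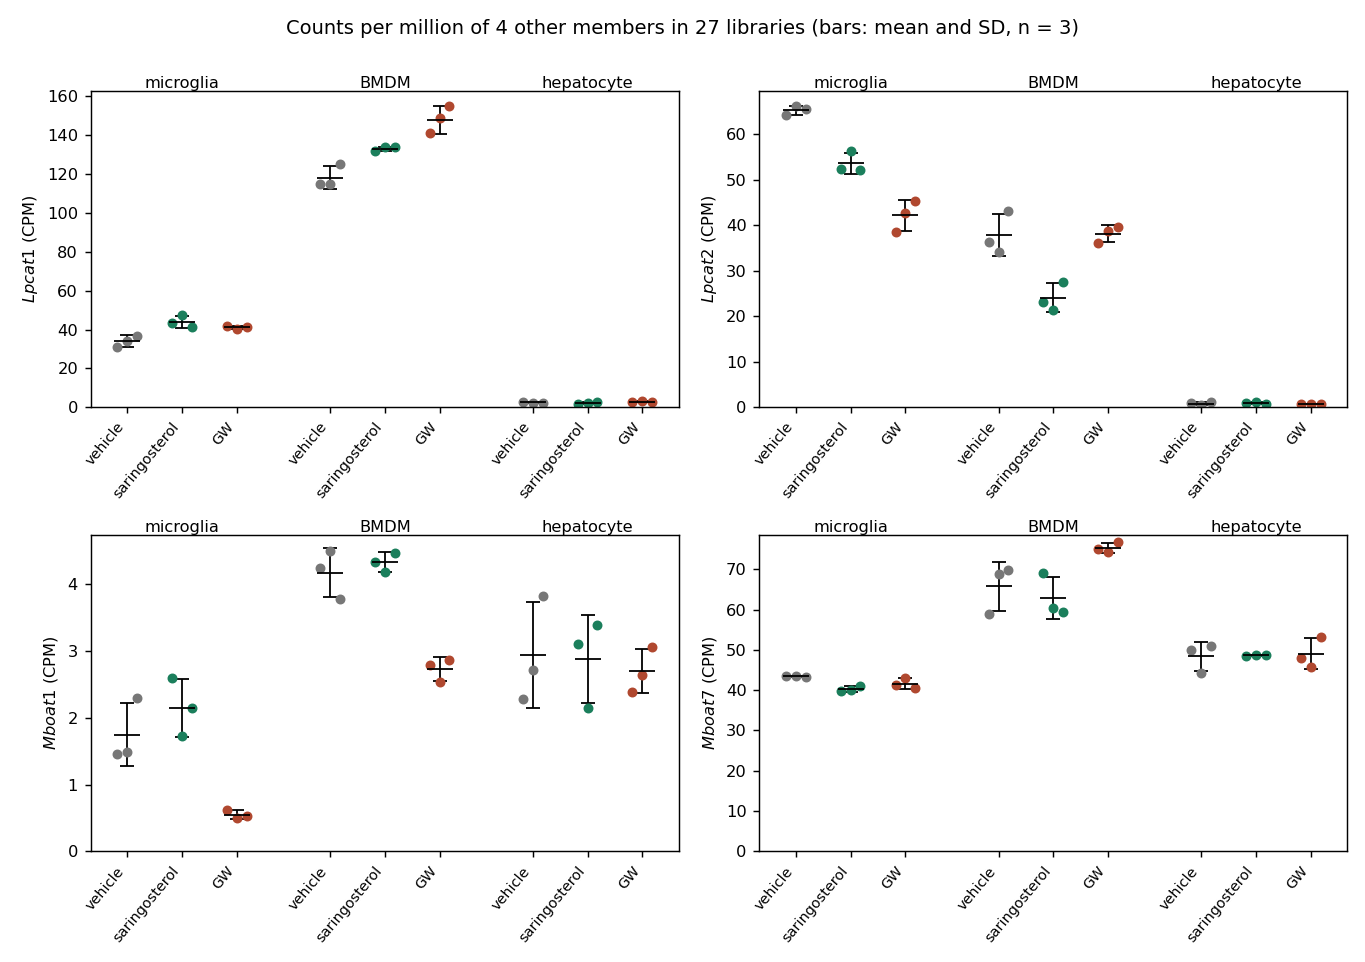
CPM of Lpcat1, Lpcat2, Mboat1 and Mboat7 in all 27 libraries on linear axes from 0 (points are libraries, bars are mean and SD, n = 3). Lpcat2 steps down from 65.3 to 53.6 to 42.2 CPM across the microglia groups and is at 38.2 CPM with GW in BMDM, and Mboat1 is at 0.550 CPM in GW-treated microglia.

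Whether a response differed between cell types was tested as a contrast in one fit of all 27 libraries. For GW, Lpcat3 rose more in microglia than in hepatocytes by 1.18 ± 0.084 (edgeR adjusted p = 3.5e-12) and more in BMDM than in hepatocytes by 0.87 ± 0.084 (adjusted p = 7.4e-09). Microglia exceeded BMDM by 0.3 ± 0.084 (adjusted p = 0.016), a call lost without microglia vehicle replicate 3, microglia GW replicate 1, BMDM vehicle replicate 3 or BMDM GW replicate 2 (0.2 to 0.28, adjusted p = 0.053 to 0.083). For saringosterol, Lpcat3 responded more in microglia (0.46 ± 0.085, adjusted p = 0.0019) and BMDM (0.66 ± 0.085, adjusted p = 3.8e-06) than in hepatocytes. The difference between microglia and BMDM was -0.2 ± 0.085 (adjusted p = 0.23), and it passed only without BMDM vehicle replicate 3 (-0.3, adjusted p = 0.023).

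Lpcat2 and Mboat1 supplied the other called differences in response. With GW, Lpcat2 was lower in microglia relative to BMDM by -0.65 ± 0.13 (edgeR adjusted p = 0.0014). With saringosterol, it was lower in BMDM relative to hepatocytes by -0.86 ± 0.26 (adjusted p = 0.028), which was lost in 4 of 27 runs that left out 1 library (-0.88 to -0.62, adjusted p = 0.052 to 0.18). Mboat1 was lower with GW in microglia relative to hepatocytes by -1.52 ± 0.34 (adjusted p = 0.0027) and relative to BMDM by -1.06 ± 0.34 (adjusted p = 0.042). For saringosterol, Lpcat4 in BMDM relative to hepatocytes just missed the threshold at 0.77 ± 0.26 (adjusted p = 0.051), and it passed with DESeq2 (0.014), RLE scaling (0.035), no filter (0.033) and in 6 of 27 runs that left out 1 library. Lpcat1 in microglia relative to hepatocytes gave 0.51 ± 0.15 (adjusted p = 0.1) and passed with DESeq2 (0.046), no filter (0.049) and without hepatocyte vehicle replicate 2 (0.044) or hepatocyte saringosterol replicate 3 (0.025). In counts, the members called for saringosterol were 0 of 8 between microglia and BMDM (2.01% of all genes), 1 between microglia and hepatocytes (1.18%) and 2 between BMDM and hepatocytes (10.1%). The count of 0 had 2 members with an unadjusted p under 0.05 and was also 0 with DESeq2. For GW they were 3 between microglia and BMDM (9.71%), 2 between microglia and hepatocytes (8.69%) and 1 between BMDM and hepatocytes (4.74%).

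Beside 5 known LXR target genes of microglia and BMDM, Lpcat3 changed less than each of them with saringosterol and lay within their range with GW; these gaps were not tested. In microglia, saringosterol changed the sterol transporters Abca1 by 1.71 and Abcg1 by 0.97, the ubiquitin ligase Mylip by 0.96, the lipogenic regulator Srebf1 by 0.7 and the desaturase Scd1 by 1.41, against 0.34 for Lpcat3. With GW the same genes changed by 2.16, 1.1, 1.54, 1.97 and 4.3, against 1.89. In BMDM the values in the same order were 1.52, 0.94, 0.9, 0.86 and 1.58 with saringosterol (Lpcat3 0.53) and 1.98, 1.14, 1.26, 2.14 and 4.32 with GW (Lpcat3 1.58). The receptor gene Nr1h3 rose by 0.35 and 0.42 with saringosterol in microglia and BMDM and by 0.21 with GW in microglia. Nr1h2, the other LXR gene, was not called in any of the 6 comparisons with vehicle. In hepatocytes none of these 7 genes was called with saringosterol by edgeR, and 3 had an unadjusted p under 0.05. With GW, Abca1 (1.92), Abcg1 (4.1 ± 0.41), Srebf1 (1.32) and Scd1 (1.93) were called there. Abcg1 was far lower in vehicle hepatocytes than in vehicle microglia (-11.58 on the log2 scale), so its rise began from a low level. The 7 genes were picked as known LXR genes with earlier results of these data in view, so they are no independent evidence.

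**Figure D5:**
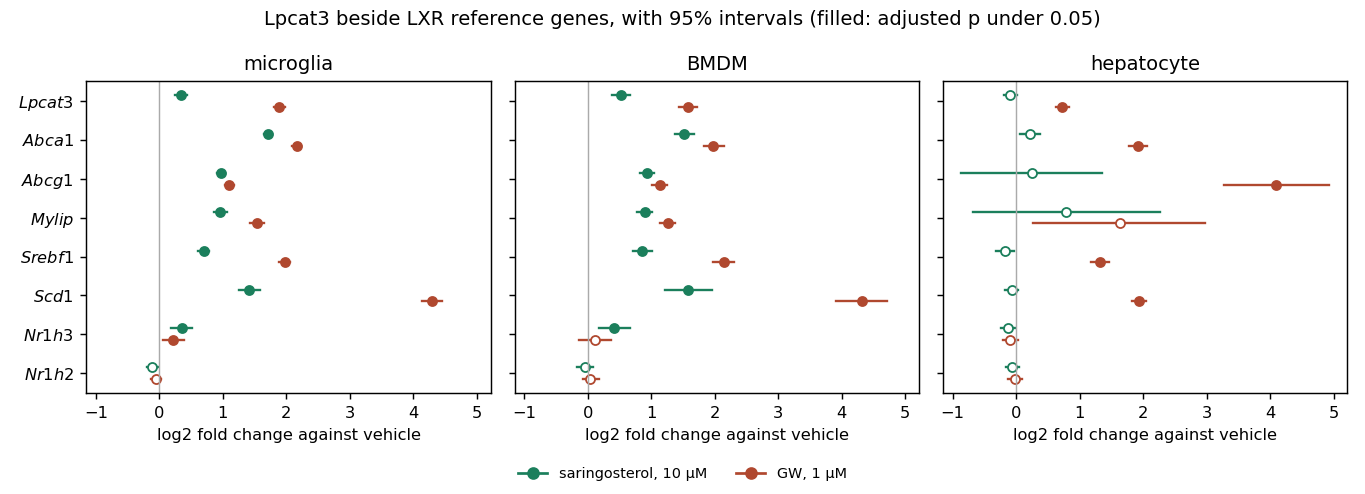
Log2 fold change against vehicle of Lpcat3 and 7 LXR genes, for 10 µM saringosterol (green) and 1 µM GW (red), with 95% intervals and filled points for adjusted p under 0.05. In microglia and BMDM the distance between the red and green points is larger for Lpcat3, Srebf1 and Scd1 than for Abca1, Abcg1 and Mylip.

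Genes of the steps around this reaction were counted from lists, beside the shares of all genes called given above: with GW 28.7% in microglia, 10.4% in BMDM and 1.11% in hepatocytes, and with saringosterol 10.8%, 10.7% and 1.91%. Acyl-CoA synthetases and the acyl-CoA binding protein supply the activated chain: of 5 tested, 3 rose and 1 fell with GW in microglia, 2 rose in BMDM and 4 rose in hepatocytes. Acsl3 rose by 2.28 ± 0.051, 1.67 ± 0.14 and 0.95 ± 0.074 in turn, and Acsl4, which favours arachidonate, by 0.54, 0.78 and 0.39. With GW the binding protein gene Dbi rose by 0.68 in microglia and 0.28 in hepatocytes, and Acsl1 fell by 0.56 in microglia. With saringosterol, Acsl3 rose by 0.38 in microglia, Acsl4 by 0.25 in microglia and 0.45 in BMDM, and Dbi fell by 0.21 and 0.44 in microglia and BMDM. In hepatocytes none of the 5 was called with saringosterol by edgeR, and 4 had an unadjusted p under 0.05.

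Of the desaturases that make polyunsaturated chains, Fads1 and Fads2 fell with saringosterol in all 3 cell types, and Fads2 rose with GW in all 3. Of the list, with GW, 3 of 4 tested rose in microglia, 3 of 3 in BMDM and 2 of 4 in hepatocytes. The desaturase Fads2 went from 20 ± 0.42 to 173 ± 11 CPM in microglia (3.11 ± 0.063), from 28.5 ± 4.68 to 102 ± 9.56 CPM in BMDM and from 128 ± 10.6 to 228 ± 20 CPM in hepatocytes (SD, n = 3). Fads1 rose with GW by 0.61 in microglia and 0.42 in BMDM. With saringosterol, 1 rose and 2 fell in microglia, 2 of 3 fell in BMDM and 2 of 4 fell in hepatocytes. Fads2 fell by 0.92 in microglia, 1.05 in BMDM and 0.44 in hepatocytes, and Fads1, the next desaturase of the route, by 0.26, 0.18 and 0.53. The elongase Elovl5 rose with GW by 1.28, 0.76 and 0.23, and with saringosterol by 0.41 in microglia. In hepatocytes, Fads1 and Fads2 were thus lower with saringosterol, while none of the 7 members tested there was called by edgeR. Of these 7, 1 had an unadjusted p under 0.05, and Mboat2 was not tested.

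The last lists hold phospholipases that release lysophospholipids, the acyltransferases of the de novo route and relatives of the membrane-bound family. Of 13 tested lysophospholipid genes, 6 rose and 1 fell with GW in microglia and 4 rose in BMDM. The lysosomal phospholipase Pla2g15 rose by 0.86 ± 0.039 and 0.47 ± 0.063 there, and in microglia Abhd3 rose by 0.73 and Lyplal1 by 0.47. In BMDM Pla2g6 rose by 0.44 and Pnpla7 by 0.33 with GW. With saringosterol, Pla2g15 rose by 0.16 in microglia, where Pla2g7, which breaks down platelet-activating factor, fell by 0.17 and Abhd3 by 0.69; in BMDM Pla2g7 fell by 0.46, and no other gene of the 13 was called. None of the 13 was called in hepatocytes with either compound by edgeR, and 3 with saringosterol and 2 with GW had an unadjusted p under 0.05. Of the de novo list, Gpam, the mitochondrial first-step enzyme, rose with GW by 0.54, 0.78 and 0.33 in microglia, BMDM and hepatocytes and with saringosterol by 0.31 and 0.54 in microglia and BMDM. The list had 4 genes higher and 1 lower of 10 with GW in microglia, and 2 higher and 1 lower with saringosterol. With GW in microglia Lclat1 rose by 0.35 and Gpat3 fell by 0.65, and with saringosterol there Agpat5 rose by 0.23 and Agpat4 fell by 0.39. Among relatives of the membrane-bound family, the sterol esterifying enzyme Soat2 fell in microglia by 0.78 with saringosterol and 0.88 with GW, while Soat1 rose by 0.12 and 0.11. With saringosterol Porcn, which acylates Wnt proteins, fell in microglia by 0.92 (± 0.29, edgeR adjusted p = 0.036) and the triglyceride enzyme Dgat1 fell in BMDM by 0.36. Soat2 rose by 2.25 ± 0.51 with saringosterol in BMDM, from 0.201 ± 0.0974 to 0.97 ± 0.557 CPM (SD, n = 3).

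Across the 27 libraries, with each cell type's mean removed, the 5 genes most like Lpcat3 by Pearson's r on log2 CPM were Scd1 (0.985), the acyl-CoA synthetase Acsl3 (0.983), the fatty acid synthase Fasn (0.975), Srebf1 (0.965) and the isocitrate dehydrogenase Idh1 (0.962), among 18971 genes. Ranked by Spearman's rho, 1 of these 5, Fasn, stayed among the top 5. The libraries share 3 treatments and 9 groups, so r mostly follows the group means, and no test is attached. Among the other members r with Lpcat3 was 0.567 for Lpcat1, 0.347 for Mboat7, 0.325 for Lpgat1, -0.103 for Lpcat4, -0.299 for Mboat2, -0.312 for Lpcat2 and -0.786 for Mboat1. Mboat1, the other member with a called change beyond 1 on the log2 scale against vehicle, had as its 5 most alike genes Mcm7 (0.906), Nek2 (0.898), Cep55 (0.898), Aurka (0.896) and Pimreg (0.885). The Mboat1 list was not ranked again by Spearman's rho. In GW-treated microglia, Mboat1 rested on 22, 17 and 20 counts.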

How the data were processed

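The submitters' processing notes name bcl2fastq, STAR 2.5.1a, the build GRCm38 and featureCounts 1.4.6-p5 (Subread). Oligo-dT SMARTer Ultra Low libraries were made, per the labels. Annotation release, strand setting and multi-mapping rule: not given in the sources used here. Whole counts per gene were deposited by the authors, with CPM, FPKM and TPM values; tests used the counts, levels between genes used the deposited TPM, and the CPM and FPKM columns entered no result. CPM printed for single genes was recomputed from counts on TMM-scaled totals within a cell type (marker sums: plain totals). With edgeR 4.0.16 in R 4.3.3, filterByExpr, TMM scaling and the robust quasi-likelihood F test were fitted per cell type on 9 libraries (16065, 15416 and 16098 genes) and once on all 27 libraries (18979 genes) for contrasts between cell types. Benjamini-Hochberg adjustment covered all genes tested, and calls were made at an adjusted p under 0.05. The fits were tested on simulated counts. RLE scaling, DESeq2 1.42.0, no filter, a replicate block, one joint fit and leaving out each library were tried. A prior count of 2 entered the correlations.

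The members and gene lists were chosen with earlier results of these data known. All members are named. Of each other list the called genes with the largest change, at most 3 per comparison with vehicle, are named, with Acsl4 added for GW in microglia. Every LXR gene is named too, as are the 5 genes most like Lpcat3 and Mboat1. The interferon sum was added after the data were seen. RefSeq promoter windows and GENCODE M21 gene models are on the build of the files. No protein sequence was used here.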

Additional observations from a re-analysis of the deposited data

Results flagged for a closer look

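Differences in response between cell types that passed their own test in one fit of 27 libraries are listed here on the log2 scale, as edgeR estimates. The GW response of Lpcat3 in microglia exceeded that in hepatocytes by 1.18 (adjusted p = 3.5e-12) and that in BMDM by 0.3 (adjusted p = 0.016), and the response in BMDM exceeded that in hepatocytes by 0.87 (adjusted p = 7.4e-09). For saringosterol, the Lpcat3 response exceeded that of hepatocytes by 0.46 in microglia (adjusted p = 0.0019) and by 0.66 in BMDM (adjusted p = 3.8e-06). The GW response of Lpcat2 in microglia minus that in BMDM was -0.65 (adjusted p = 0.0014).

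The saringosterol response of Lpcat2 in BMDM minus that in hepatocytes was -0.86 (adjusted p = 0.028). This call was lost without BMDM saringosterol replicate 2 (-0.78), hepatocyte vehicle replicate 1 (-0.88) or 2 (-0.62), or hepatocyte saringosterol replicate 2 (-0.65), with adjusted p = 0.052 to 0.18; hepatocytes held 20 to 45 counts of Lpcat2 per library. Without BMDM saringosterol replicate 3, which is high in interferon-stimulated genes, it was -0.98 (adjusted p = 0.011), and the microglia minus BMDM difference of Lpcat2, 0.36 with all libraries (adjusted p = 0.16), became 0.48 (adjusted p = 0.045).

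The GW response of Mboat1 in microglia minus that in hepatocytes was -1.52 (adjusted p = 0.0027), and minus that in BMDM -1.06 (adjusted p = 0.042). The latter was lost with no filter (-1.05, adjusted p = 0.061) and in 9 of the 27 runs that left out 1 library, namely any 1 of microglia vehicle replicate 3, the 3 microglia GW libraries, the 3 BMDM vehicle libraries and BMDM GW replicates 1 and 3 (-1.16 to -0.81, adjusted p up to 0.17).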

How the results depend on the processing

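Of 3217 values of single members under other settings, 3143 kept their side of the threshold, 40 lost the call and 34 gained it; 63 of the 3143, called in neither setting, changed sign, and no called value did. Counts of members called stayed within 1.5 times of the reported count under every setting except these: for the saringosterol response of microglia against hepatocytes 2 with DESeq2 and 2 with no filter against 1 reported, and for the 5 genes most like Lpcat3 1 shared when ranked by Spearman's rho. Leaving out 1 library at a time gave 1 to 3 members for the GW response of microglia against BMDM (3 reported; 1 without microglia vehicle replicate 3 or microglia GW replicate 1), 2 to 4 for saringosterol against GW in BMDM (4; 2 without BMDM GW replicate 2), 1 to 3 for the saringosterol response of BMDM against hepatocytes (2; 1 without hepatocyte vehicle replicate 1 or hepatocyte saringosterol replicate 2), 0 to 1 for that of microglia against BMDM (0; 1 without BMDM vehicle replicate 3 or BMDM saringosterol replicate 3) and 1 to 2 for that of microglia against hepatocytes (1; 2 without hepatocyte vehicle replicate 2 or hepatocyte saringosterol replicate 3). The other ranges were 2 to 4 for GW (3) and 2 to 3 for saringosterol (2) against vehicle in BMDM, 6 to 7 for both vehicle comparisons with BMDM (7) and 5 to 6 for vehicle hepatocytes against microglia (5); the remaining counts did not move.

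The labels number the replicates alike in every group. Libraries with the same number did not deviate together (correlation of deviations -0.15 to 0.11 over 27 pairs, against -0.13 to 0.12 over 54 other pairs). These values show no pairing by number. They cannot exclude one, because the deviations also carry counting error. With the replicate number as a block, 2 of 141 member calls changed: Lpcat1 with saringosterol in BMDM passed (0.18, adjusted p = 0.035) and Mboat2 between vehicle microglia and BMDM did not (-0.75, adjusted p = 0.49). Low counts limit Mboat2 everywhere, Lpcat2 and Lpcat1 in hepatocytes and Mboat1 in GW-treated microglia.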
